A study of Mus musculus with 38 samples.

Results

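The 8 genes described here encode fibronectin (Fn1) and 7 matricellular glycoproteins: osteopontin (Spp1), tenascin C (Tnc), periostin (Postn), thrombospondins 1, 2 and 4 (Thbs1, Thbs2 and Thbs4) and the collagen triple helix repeat protein Cthrc1. They were listed by symbol, with earlier results of these data known, and all 8 were found among the 55487 genes of the tumor and cell line tables. Their RNA was measured in omental tumors of 2 mouse models of high-grade serous ovarian cancer (HGSOC) and in the cultured cell lines from which those tumors grew. The 60577 cells were injected into the peritoneal cavity of syngeneic FVB mice and the HGS2 cells into C57BL/6J mice, all 8 to 9 weeks old at injection. From day 21 (60577) or day 49 (HGS2) the mice received 3 weekly doses of carboplatin at 20 mg/kg with paclitaxel at 10 mg/kg, or vehicle, into the peritoneal cavity. Tumors were taken 1 day (TP1), 7 days (TP2) or 21 days (TP3) after the last dose. The 60577 groups held 3 control and 3 treated tumors at TP1, 3 control and 4 treated tumors at TP2, and 4 treated tumors at TP3. The HGS2 groups held 3 and 3 tumors at TP1, 4 control and 3 treated tumors at TP2, and 4 treated tumors at TP3, of which replicate 1 was left out of the tests because the tables of the study do not hold it. There were no TP3 controls, so in the comparison of TP3 treated tumors with TP2 controls time and treatment cannot be told apart. Each cell line, untreated and in monoculture, was measured in 2 replicates, and no source used here says whether these came from separate cultures or which oncogenic changes the lines carry. Mouse strain, cell line and tumor age all differ between the models and cannot be told apart.

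Fibronectin is secreted as a dimer and stretched by cells into fibrils that bind integrins, collagens and other matrix proteins. Matricellular proteins sit in the same matrix but mainly act as signals: they bind integrins, syndecans, CD44, CD36 or CD47 on cells and so change adhesion, migration and growth factor activity. In adult tissue most of them are low, and in wound healing, fibrosis and tumors activated fibroblasts, macrophages and cancer cells make more of them. The omentum, a fatty fold of the peritoneum, is the usual site of spread of HGSOC, and its metastases are rich in this kind of matrix.

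The expected counts per library summed to between 17839641 and 49299421 in the tumors and between 31633099 and 42461989 in the cell lines. Levels are given as CPM, the counts of a gene relative to all counts of its library, scaled by TMM within each table, and a gene was called when the edgeR quasi-likelihood test gave a Benjamini-Hochberg adjusted p below 0.05 over all genes tested and an absolute log2 fold change above 1. Several libraries stood apart. In HGS2, pancreatic acinar genes (6 genes such as Cpa1 and Prss2) summed to 65250 CPM in TP1 control replicate 3, 125400 CPM in TP2 control replicate 2 and 65800 CPM in TP3 treated replicate 2, and to at most 1549 CPM in every other tumor. In 60577, the share of 7SL RNA, the structural RNA of the signal recognition particle, was 3.59% to 4.91% in TP1 controls and 7.87% to 15.4% in TP1 treated tumors, without overlap. It was 2.91% to 14.1% in TP2 controls, 9.38% to 26.5% in TP2 treated tumors and 1.93% to 5.89% in TP3 treated tumors. The mean log2 CPM of the pancreatic genes in 60577 was -5.15 to -4.24 in TP1 controls and -2.32 to 0.92 in TP1 treated tumors. It was -2.94 to 1.01 in TP2 treated and 3.08 to 6.05 in TP3 treated tumors. Neither measure overlapped between TP1 controls and TP1 treated tumors, or between TP2 and TP3 treated tumors. A fit with it as a covariate therefore cannot tell it apart from those contrasts. The epithelial keratin gene Krt8 was at 1140.0 to 1205 CPM in the 60577 line and at 76.3 to 158 CPM in the HGS2 line, whereas the epithelial adhesion gene Epcam was at 3.05 to 4.49 CPM in 60577 and at 0 to 0.162 CPM in HGS2. Pax8, a marker of the Müllerian epithelium, was below 1 CPM in every library. Macrophage, neutrophil and adipocyte markers were at or near 0 in both lines. The mesothelial list (6 genes such as Upk3b and Msln) was not: it summed to 3599 to 3949 CPM in the 60577 line and 2170 to 3427 CPM in the HGS2 line.

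On the GRCm38 build, Fn1 (ENSMUSG00000026193) lies on the minus strand at chr1:71585520-71653200 and Tnc (ENSMUSG00000028364) on the minus strand at chr4:63959785-64047015. Spp1 (ENSMUSG00000029304) lies on the plus strand at chr5:104435118-104441050, Postn (ENSMUSG00000027750) on the plus strand at chr3:54361109-54391037 and Cthrc1 (ENSMUSG00000054196) on the plus strand at chr15:39076932-39087121. The thrombospondin genes lie on chromosomes of their own: Thbs1 (ENSMUSG00000040152) at chr2:118111876-118127133 on the plus strand, Thbs2 (ENSMUSG00000023885) at chr17:14665500-14694235 and Thbs4 (ENSMUSG00000021702) at chr13:92751590-92794818, both on the minus strand. All 8 are protein coding. Each count is the sum over the exons of all transcripts of a gene, from 2 annotated transcripts in Thbs1, Thbs2 and Thbs4 to 17 in Fn1, so splice forms such as the alternative fibronectin and tenascin exons are not resolved. Spp1 shares its strand with the unspliced model Gm42793, which took 1312 counts over the 34 tumors against 364738 for Spp1, so shared reads could change the Spp1 level by little.

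RefSeq promoters of 300 bases, 250 before and 50 after the start site, were matched for 5 of the 8 genes (Spp1, Tnc, Postn, Thbs2 and Thbs4; GRCm38.p6). Spp1 is shown because it had the widest range over the tumors, and Postn and Thbs2 because they varied together over the tumors of each model. Capitals mark the letters TATAAA (searched on the shown strand) and CCAAT (either strand, so that ATTGG also counts). TGANTCA, the core letters of an AP-1 site, and GGGCGG were searched as well and are in none of these 3.
Spp1 promoter, chr5:104434861-104435160, plus strand: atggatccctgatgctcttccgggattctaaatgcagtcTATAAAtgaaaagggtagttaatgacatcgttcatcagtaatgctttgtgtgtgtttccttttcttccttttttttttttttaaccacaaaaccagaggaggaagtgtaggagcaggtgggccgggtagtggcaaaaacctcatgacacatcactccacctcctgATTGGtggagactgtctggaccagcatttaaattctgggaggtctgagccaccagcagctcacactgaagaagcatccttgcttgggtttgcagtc
Postn promoter, chr3:54360857-54361156, plus strand: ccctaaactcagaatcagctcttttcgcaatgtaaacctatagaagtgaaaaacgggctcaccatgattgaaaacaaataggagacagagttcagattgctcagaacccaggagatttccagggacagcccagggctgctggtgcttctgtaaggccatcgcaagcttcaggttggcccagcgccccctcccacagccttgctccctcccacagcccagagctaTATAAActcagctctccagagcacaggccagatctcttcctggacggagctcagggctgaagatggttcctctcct
Thbs2 promoter, chr17:14694213-14694512, minus strand: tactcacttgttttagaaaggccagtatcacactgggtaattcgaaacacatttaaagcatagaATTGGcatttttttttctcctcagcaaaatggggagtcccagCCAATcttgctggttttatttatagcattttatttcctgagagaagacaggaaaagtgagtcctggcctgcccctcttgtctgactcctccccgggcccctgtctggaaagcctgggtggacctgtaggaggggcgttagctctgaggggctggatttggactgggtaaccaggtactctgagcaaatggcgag

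TATAAA starts at position -26 from the start site in Postn, the usual distance of a TATA box, and at -211 in Spp1. CCAAT letters start at -46 in Spp1 and at -186 and -144 in Thbs2. Of the 32851 mouse promoters of this length, 8.32% hold TATAAA on the strand of the gene. CCAAT is in 37.4%, TGANTCA in 7.81% and GGGCGG in 35.7%. Postn and Thbs2 share none of the 4 motifs in these windows.

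Per kilobase of exon, Fn1 had the highest mean of the 8 in every group and both lines, and was the highest in all but 3 of the 38 libraries. The exceptions were HGS2 TP1 control replicate 1, with Fn1 at 882 CPM per kilobase against 944 for Tnc and 951 for Spp1, and 2 HGS2 TP3 tumors in which Spp1 was above Fn1, 1 of them the tumor left out of the tests. In the 60577 controls, Fn1 was at 488 to 1128 CPM per kilobase, next came Spp1 (53.0 to 239.7), Thbs1 (25.7 to 48.0) and Tnc (12.3 to 33.5), and Thbs4, Cthrc1, Thbs2 and Postn were each at or below 13.1. The ranges of Thbs1 and Tnc overlapped, as did those of the 4 lowest genes. In the HGS2 controls, Fn1 was at 511 to 1067 CPM per kilobase and Tnc at 26.3 to 944. Spp1, Postn, Thbs1 and Thbs2 had ranges between 14.1 and 951 that overlapped with each other and with that of Tnc, Cthrc1 was at 19.4 to 71.96 and Thbs4 at 1.67 to 37.7. The order of the middle genes therefore rests on single tumors. Together the 8 genes took 0.629% to 1.40% of the counts in 60577 controls and 0.838% to 2.30% in HGS2 controls.

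**Figure D1:**
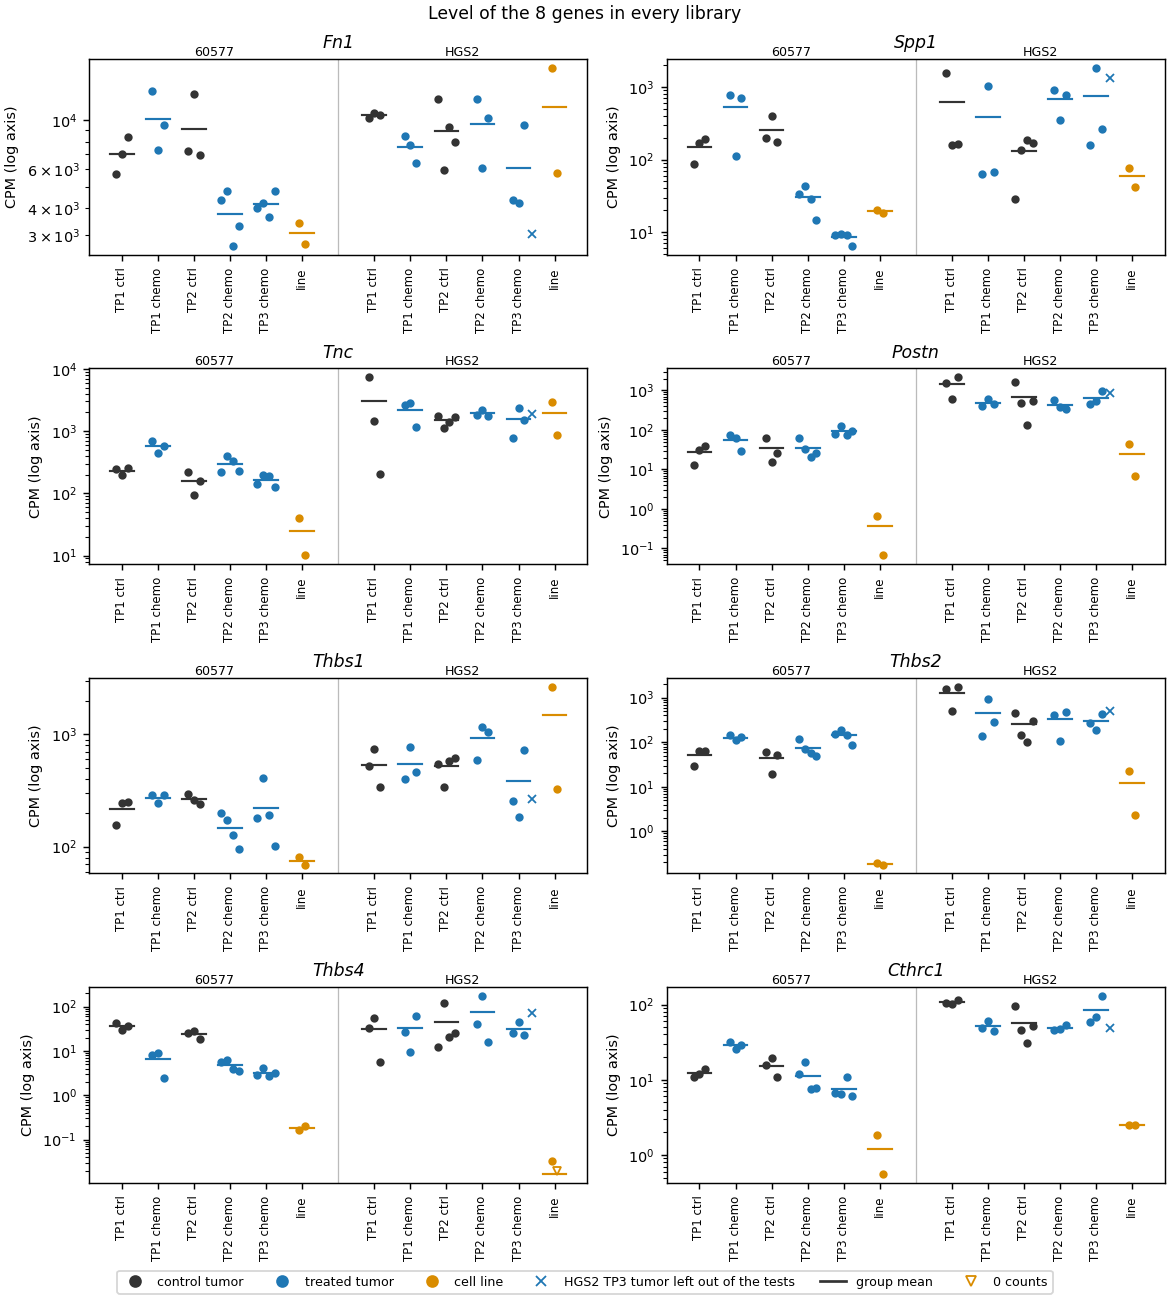
Level of each gene (CPM, log axis) in every library, by model, time point and treatment, with lines at the means of the libraries tested and a cross for the HGS2 TP3 tumor left out of the tests. In 60577, Spp1 drops from 112 to 781 CPM in TP1 treated tumors to 6.44 to 9.51 CPM at TP3, Thbs4 is lower in every treated tumor than in every control, and in HGS2 the treated and control points mostly overlap.

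In 60577 tumors, these genes differed between treated and control tumors in another way at each time point. At TP1, 4 rose against controls (Spp1, Tnc, Thbs2 and Cthrc1) and Thbs4 fell. At TP2, Fn1, Spp1 and Thbs4 were lower than in the TP2 controls and none was called higher. In TP3 treated tumors, Fn1, Spp1, Thbs4 and Cthrc1 were lower than in the TP2 controls, and Postn and Thbs2 were higher. Of all genes tested, 15.6% were called at TP1 (9.62% higher and 5.96% lower), 24.4% at TP2 (14.8% higher and 9.61% lower) and 24.4% at TP3 against TP2 controls (14.2% higher and 10.2% lower), so the counts of 5, 3 and 6 of 8 genes are read against these shares. The median log2 fold change of the 8 genes was 1.11 at TP1, -0.66 at TP2 and -0.64 at TP3, and that of all genes lay between -0.0021 and 0.0312. TP2 and TP3 treated tumors were compared with the same 3 TP2 controls. In bulk tissue, fewer cells of a type and less RNA per cell cannot be told apart. Between the TP1 and TP2 controls of 60577, 0 of the 8 genes and 0% of all genes were called by edgeR (1505 of 16241 genes had an unadjusted p below 0.05, none of the 8), and 70 genes, none of the 8, were called by the DESeq2 Wald test.

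**Figure D2:**
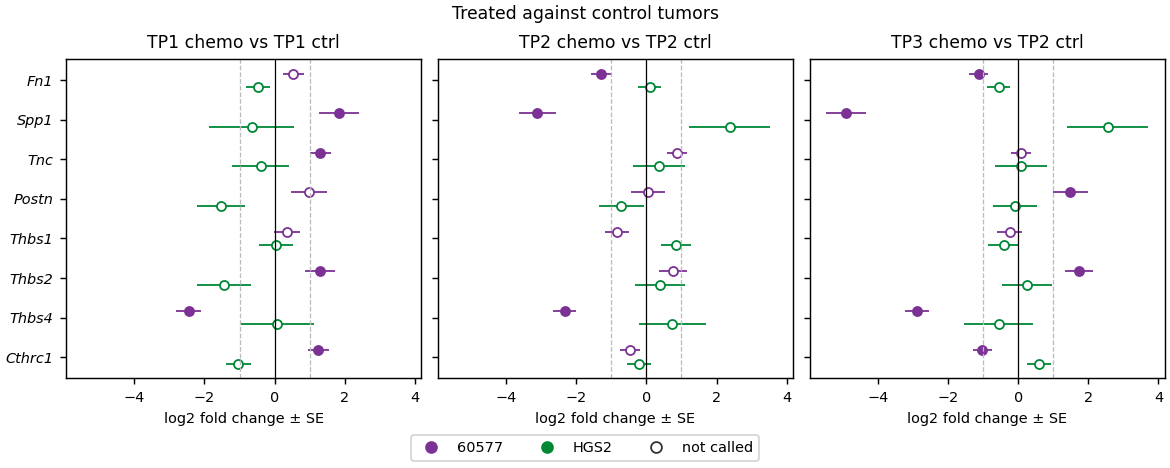
Log2 fold change (x axis, ± SE) of each gene in treated against control tumors in 60577 (purple) and HGS2 (green), with filled points for called genes and dashed lines at a log2 fold change of 1 in either direction. In 60577, 5, 3 and 6 genes are filled from left to right, and in HGS2 none is.

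Fibronectin itself was called lower at TP2 and TP3, and not at TP1. In 60577, Fn1 was at 5704, 6999 and 8406 CPM in TP1 controls and at 13574, 7349 and 9532 CPM in TP1 treated tumors. These groups overlapped, and the log2 fold change of 0.54 (SE 0.30, edgeR adjusted p = 0.187) was not called. At TP2 it was at 7245, 13186 and 6939 CPM in controls and at 4326, 4751, 2681 and 3287 CPM in treated tumors. Every treated tumor lay below every control, and Fn1 fell by 1.29 on the log2 scale (SE 0.28, edgeR adjusted p = 0.00127). The size of this fall leaned on TP2 control replicate 2, the highest of all: without it the log2 fold change was -0.92 (adjusted p = 0.0115), under the limit of 1, and with the 7SL share as a covariate it was -0.84. From TP1 to TP2, Fn1 fell in treated tumors by 1.44 on the log2 scale (SE 0.28, edgeR adjusted p = 0.00585), where 5.98% of all genes were called (3.55% higher and 2.44% lower). Without the TP2 treated tumors richest in 7SL (replicates 3 and 4) this change was -1.17 (adjusted p = 0.0664) and was not called. TP3 tumors, at 3983, 4227, 3636 and 4759 CPM, differed from TP2 treated tumors by a log2 fold change of 0.16 (SE 0.26, edgeR adjusted p = 0.642). Against TP2 controls they were lower by a log2 fold change of -1.13 (SE 0.28, edgeR adjusted p = 0.00329), and by -0.76 without TP2 control replicate 2.

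Osteopontin had the widest swing. Spp1, a phosphorylated ligand of integrins and CD44 that macrophages and tumor cells secrete, was at 87.4, 171 and 192 CPM in 60577 TP1 controls and at 781, 112 and 704 CPM in TP1 treated tumors. A pair of treated tumors stood far above all controls and replicate 2 lay among them. The log2 fold change was 1.84 (SE 0.56, edgeR adjusted p = 0.0211), and the call was lost without control replicate 1 (1.56, adjusted p = 0.0910), without treated replicate 1 (1.46, adjusted p = 0.0850), without treated replicate 3 (1.58, adjusted p = 0.0702), without a filter on low counts (adjusted p = 0.0612) and with limma-voom (1.48, adjusted p = 0.0639). At TP2 the controls were at 201, 395 and 176 CPM and the treated tumors at 33.7, 43.5, 28.5 and 14.6 CPM. There was no overlap, and Spp1 was 8.64-fold lower (log2 fold change -3.11, SE 0.53, edgeR adjusted p = 0.000231), a call kept under every setting tried. From TP1 to TP2 it fell in treated tumors by 4.16 on the log2 scale (SE 0.55, edgeR adjusted p = 0.00210), also kept under every setting. At TP3 it was at 9.01, 9.51, 9.15 and 6.44 CPM, below every TP2 treated tumor. The further fall of 1.80 (SE 0.50, edgeR adjusted p = 0.0155) was called where 7.86% of all genes were (3.46% higher and 4.40% lower), but not with the 7SL share as a covariate (-2.34, adjusted p = 0.402), with pancreas genes as a covariate (-1.49, adjusted p = 0.121) or without the TP2 treated tumors richest in 7SL (-2.17, adjusted p = 0.0521). Neither covariate overlapped between TP2 and TP3 treated tumors, so the fits that hold them cannot tell the covariate apart from this contrast. Against TP2 controls, TP3 tumors were 30.1-fold lower in Spp1 (log2 fold change -4.91, SE 0.58, edgeR adjusted p = 7.94e-06), a call kept under every setting.

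Some macrophage markers were called higher in treated than in control tumors, and some lower in TP2 than in TP1 treated tumors. The 9 genes of the list summed to 820.3 to 1251 CPM in TP1 controls, 2923 to 4276 CPM in TP1 treated tumors, 867 to 1679 CPM in TP2 controls, 1173 to 3736 CPM in TP2 treated tumors and 3012 to 4000.0 CPM at TP3. At TP1, 4 of the 9 were called higher (Trem2, Gpnmb and Lyz2 with the smallest adjusted p), at TP2 3 were called higher and at TP3 3, with 0 lower in each. From TP1 to TP2 in treated tumors, where Spp1 fell by 4.16, 0 of the 9 were called higher and 2 lower, with a median log2 fold change of -0.28, and from TP2 to TP3 2 were called higher and 0 lower. Epithelial genes went the other way: 5 of the 5 tested were called lower at each of the 3 time points, and their sum was 1090.0 to 1911 CPM in controls and 123.8 to 405 CPM in treated tumors. Of all genes, 9.62% were called higher and 5.96% lower at TP1, 14.8% and 9.61% at TP2, and 14.2% and 10.2% at TP3 against TP2 controls. The part of macrophages and epithelial cells in the Spp1 level was not tested.

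Tenascin C and Cthrc1 were called higher at TP1 and not at later time points. Tnc, a large hexameric protein of provisional matrix that weakens adhesion to fibronectin, was at 242, 195 and 260.3 CPM in TP1 controls and at 704, 439.6 and 573 CPM in TP1 treated tumors of 60577. The groups did not overlap, and Tnc rose by 1.31 on the log2 scale (SE 0.30, edgeR adjusted p = 0.00426). With pancreas genes as a covariate the change was 0.82, but this covariate did not overlap between the groups and cannot be told apart from treatment. At TP2, controls were at 224, 95.4 and 158 CPM and treated tumors at 217, 399, 334 and 225 CPM, a log2 fold change of 0.87 (SE 0.29, edgeR adjusted p = 0.0167) that was under the limit of 1. It passed the limit with the replicate number as a block (1.02, adjusted p = 0.0128), with pancreas genes as a covariate (1.47, adjusted p = 0.000687) and without TP2 control replicate 1 (1.201, adjusted p = 0.00467). TP3 tumors were at 142, 201, 192 and 128 CPM, a log2 fold change against TP2 controls of 0.07 (SE 0.28, edgeR adjusted p = 0.855). Cthrc1, which is secreted by activated fibroblasts and limits collagen deposition, was at 10.9, 11.8 and 13.7 CPM in TP1 controls and at 31.4, 25.3 and 29.2 CPM in TP1 treated tumors. The replicates were tight, and the rise of 1.24 on the log2 scale (SE 0.30, edgeR adjusted p = 0.00549) was kept under every setting tried. It was at 15.7, 19.5 and 11.0 CPM in TP2 controls and at 12.1, 17.2, 7.53 and 7.87 CPM in TP2 treated tumors, which overlapped (log2 fold change -0.47, SE 0.28, edgeR adjusted p = 0.154). Within treated tumors Cthrc1 fell from TP1 to TP2 by 1.36 on the log2 scale (SE 0.28, edgeR adjusted p = 0.00704), a call lost when the TP2 treated tumors richest in 7SL were left out (-0.98, adjusted p = 0.0753). At TP3 it was at 6.70, 6.45, 10.8 and 6.16 CPM, all below the lowest TP2 control. The log2 fold change of -1.03 (SE 0.28, edgeR adjusted p = 0.00621) was close to the limit and passed under it to between -0.98 and -0.81 without TP2 control replicate 2 or without TP3 treated replicate 1, 2 or 4, and to -0.89 with the replicate block.

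Periostin was called higher only at TP3, and thrombospondin 2 at TP1 and TP3. Postn, a ligand of integrins that also supports collagen crosslinking, was among the lowest of the 8 in 60577 per kilobase. It was at 13.3, 32.0 and 38.4 CPM in TP1 controls and at 73.7, 61.6 and 29.5 CPM in TP1 treated tumors (log2 fold change 0.98, SE 0.52, edgeR adjusted p = 0.162). At TP2 it was at 60.9, 15.6 and 26.0 CPM in controls and at 62.1, 32.1, 20.6 and 26.6 CPM in treated tumors (log2 fold change 0.04, SE 0.48, edgeR adjusted p = 0.944). Neither pair of groups was separate. At TP3 it was at 81.0, 128, 74.3 and 96.3 CPM, above every TP2 tumor, treated or not. It was called higher than in TP2 treated tumors (1.44, SE 0.45, edgeR adjusted p = 0.0257) and than in TP2 controls (1.48, SE 0.50, edgeR adjusted p = 0.0220). Both calls were lost under several settings without a change of direction. Against TP2 treated tumors the change was 1.01 (adjusted p = 0.297) without the tumors richest in 7SL and 0.60 (adjusted p = 0.437) with pancreas genes as a covariate, and the call was lost with the 7SL share as a covariate (1.32, adjusted p = 0.585) and without TP2 treated replicate 2 (1.39, adjusted p = 0.0510), 3 (1.25, adjusted p = 0.0851) or 4 (1.34, adjusted p = 0.0740) or TP3 replicate 2 (1.26, adjusted p = 0.0688). Neither covariate overlapped between TP2 and TP3 treated tumors, so the fits that hold them cannot tell the covariate apart from this contrast. Against TP2 controls the call was lost with an offset for length and GC content (0.91, adjusted p = 0.150) and without TP2 control replicate 2 (1.14, adjusted p = 0.0917), TP2 control replicate 3 (1.32, adjusted p = 0.0799) or TP3 replicate 2 (1.301, adjusted p = 0.0554).

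Thbs2, a trimeric thrombospondin that restrains blood vessel growth, was at 29.1, 62.8 and 64.2 CPM in TP1 controls and at 142, 112 and 128 CPM in TP1 treated tumors of 60577. The groups did not overlap and the log2 fold change was 1.297 (SE 0.42, edgeR adjusted p = 0.0265), but the call was lost without TP1 control replicate 1 (1.01, adjusted p = 0.114), TP1 treated replicate 1 (1.21, adjusted p = 0.0689) or TP1 treated replicate 3 (1.29, adjusted p = 0.0566), without a filter on low counts (adjusted p = 0.0616), with the 7SL share as a covariate (1.31, adjusted p = 0.0654) and with pancreas genes as a covariate (0.77, adjusted p = 0.203). Neither covariate overlapped between the TP1 groups, so the fits that hold them cannot tell the covariate apart from treatment. At TP2 Thbs2 was at 59.3, 19.5 and 50.6 CPM in controls and at 116, 71.0, 56.4 and 48.6 CPM in treated tumors, which overlapped (0.75, SE 0.39, edgeR adjusted p = 0.109). At TP3 it was at 150.1, 188, 147 and 85.5 CPM, above all TP2 controls. Against TP2 treated tumors the change of 0.98 (SE 0.36, edgeR adjusted p = 0.0451) was just under the limit of 1, and it passed without TP2 treated replicate 1 (1.34, adjusted p = 0.00798) or TP3 replicate 4 (1.17, adjusted p = 0.0331). The rise over TP2 controls of 1.74 on the log2 scale (SE 0.41, edgeR adjusted p = 0.00225), 3.34-fold, was kept under every setting tried. Beside it, 5 of 9 fibroblast genes were called higher at TP3 than in TP2 controls (Dcn by 2.00 and Lum by 2.94 on the log2 scale), and 2 of 4 smooth muscle genes (Tagln by 1.24 and Myh11 by 4.32), while Col1a1 was at 1552 to 1991 CPM at TP3 and at 2121 to 3407 CPM in TP2 controls. Adipocyte genes summed to 0.995 to 6.46 CPM in TP2 controls and 966 to 1370.0 CPM at TP3, with 5 of 5 called higher. Of all genes, 14.2% were called higher in TP3 treated tumors than in TP2 controls. The part of fibroblasts, smooth muscle cells and adipocytes in the Postn and Thbs2 levels was not tested.

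The other thrombospondins differed from Thbs2. Thbs4, a pentameric thrombospondin of tendon, muscle and nerve, was at 43.1, 29.7 and 36.7 CPM in TP1 controls and at 8.29, 9.03 and 2.48 CPM in TP1 treated tumors of 60577. At TP2 it was at 25.3, 28.6 and 18.5 CPM in controls and at 5.56, 6.16, 3.98 and 3.61 CPM in treated tumors, and at TP3 at 2.81, 4.12, 2.78 and 3.17 CPM. Every treated tumor of every time point lay below every control. Thbs4 was 5.49-fold lower at TP1 (log2 fold change -2.46, SE 0.37, edgeR adjusted p = 0.000183), 5.03-fold lower at TP2 (-2.33, SE 0.33, edgeR adjusted p = 5.49e-05) and 7.46-fold lower at TP3 against TP2 controls (-2.90, SE 0.34, edgeR adjusted p = 7.84e-06). These 3 calls were kept under every setting tried. Of the 8 genes, Thbs4 and Spp1 were called at all 3 time points, Thbs4 lower each time and Spp1 higher at TP1 and lower afterwards. Thbs1, a trimeric thrombospondin that activates latent transforming growth factor beta and binds CD36 and CD47, was called in none. It was at 292, 261 and 240.0 CPM in TP2 controls and at 199, 171, 128 and 95.0 CPM in TP2 treated tumors, which did not overlap (log2 fold change -0.84, SE 0.35, edgeR adjusted p = 0.0503), and without TP2 treated replicate 1 it was called (-1.04, adjusted p = 0.0263). At TP1 and TP3 its log2 fold changes were 0.35 (SE 0.38, edgeR adjusted p = 0.514) and -0.25 (SE 0.35, edgeR adjusted p = 0.579).

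In HGS2 tumors, none of the 8 genes was called in any comparison by edgeR. Neither was any other gene (0% of 16241 in each of the 6 comparisons), although 407 genes at TP1 and 1228 at TP2 had an unadjusted p below 0.05, 2 and 0 of them among the 8, and the DESeq2 Wald test called 1 gene at TP1 and 8 at TP2, none of the 8. In TP1 counts simulated at the HGS2 spread, 1.5% of genes given a log2 fold change of 1 had an edgeR adjusted p below 0.05. For genes given 2 it was 55%, and at the 60577 spread these shares were 47% and 88%. The limit on the fold change was not applied in the simulation, so fewer may have been called. Cthrc1 was at 105, 101 and 115 CPM in TP1 controls and at 48.1, 60.7 and 45.2 CPM in TP1 treated tumors, so that all treated tumors lay below all controls (log2 fold change -1.03, SE 0.36, edgeR adjusted p = 0.999, unadjusted p = 0.0134). Postn was at 1573, 622 and 2158 CPM in TP1 controls and at 412, 602 and 457 CPM in TP1 treated tumors, also without overlap (-1.54, SE 0.68, edgeR adjusted p = 0.999). Fn1 was at 10304, 10858 and 10581 CPM in TP1 controls and at 8501, 7765 and 6365 CPM in TP1 treated tumors (-0.47, SE 0.35, edgeR adjusted p = 0.999). These 3 genes were lower in each TP1 treated tumor than in each TP1 control, without passing the test. All these treated values lay within the ranges of the HGS2 TP2 controls (Cthrc1 30.9 to 96.8, Postn 136 to 1656 and Fn1 5968 to 12464 CPM). Between the HGS2 controls, 7 of the 8 genes had lower estimates at TP2 than at TP1 and 0 were called. Thbs2 (-2.30, edgeR unadjusted p = 0.00667) and Cthrc1 (-0.88, edgeR unadjusted p = 0.0199) did not overlap there. For this and the other comparisons, the share of all genes without overlap was not counted.

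Spp1 varied widely within the HGS2 groups. It was at 1568, 160.2 and 163 CPM in TP1 controls and at 63.6, 1026 and 67.7 CPM in TP1 treated tumors, so 1 tumor in each group was far above the rest. At TP2 it was at 28.4, 138, 186 and 171 CPM in controls and at 921, 348 and 780.1 CPM in treated tumors. All treated tumors lay above all controls, with a log2 fold change of 2.38 (SE 1.15, edgeR adjusted p = 0.658). At TP3 it was at 160.5, 1840.3 and 267 CPM, and at 1329 CPM in the tumor left out. Tnc was at 1744, 1142, 1395 and 1697 CPM in TP2 controls and at 1849.6, 2172 and 1772 CPM in treated tumors, narrowly above them (0.36, SE 0.74, edgeR adjusted p = 0.912). Tnc also held the widest range within a group, with 7336, 1471 and 204 CPM in the 3 TP1 controls, the lowest being the tumor rich in pancreatic genes. Thbs4 was at 12.1, 124, 20.6 and 25.1 CPM in TP2 controls, where the highest value was again the tumor rich in pancreatic genes, and at 40.8, 175 and 15.7 CPM in treated tumors (0.74, SE 0.97, edgeR adjusted p = 0.850). Thbs1 was at 549, 339, 577 and 619 CPM in TP2 controls and at 597, 1168 and 1040.4 CPM in treated tumors (0.84, SE 0.44, edgeR adjusted p = 0.678). With the 3 pancreas-rich tumors left out, still 0 of the 8 genes were called in every HGS2 comparison.

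The response to chemotherapy differed between the models for 3 of the 8 genes in the joint fit. At TP1, Cthrc1 rose in 60577 and was lower in treated HGS2 tumors, a difference in log2 fold change (HGS2 minus 60577) of -2.29 (SE 0.48, edgeR adjusted p = 0.0150), where 1.42% of all genes were called (0.437% higher and 0.985% lower). The call was lost without HGS2 TP1 treated replicate 1 (-2.25, adjusted p = 0.0518) or 60577 TP1 control replicate 1 (-2.24, adjusted p = 0.0568). In HGS2, Cthrc1 was at 101 to 115 CPM in TP1 controls, above every TP2 control (30.9 to 96.8 CPM). The TP1 treated tumors (45.2 to 60.7 CPM) lay within the TP2 control range. At TP2, Spp1 fell in 60577 and was higher in treated HGS2 tumors, a difference of 5.48 (SE 1.33, edgeR adjusted p = 0.0138), where 6.85% of all genes were called (3.67% higher and 3.18% lower). Leaving out any single tumor kept this call, but it was lost with the 7SL share as a covariate (4.69, adjusted p = 0.0789), without the 60577 tumors richest in 7SL (5.13, adjusted p = 0.0872) and with the length and GC offset plus the replicate block (4.86, adjusted p = 0.0656). Fn1 differed at TP2 by 1.39 (SE 0.43, edgeR adjusted p = 0.0414). That call was lost under 7 of the other settings and without any of 7 tumors, with values from 0.81 to 1.62: without HGS2 TP2 control replicate 2 (1.25) or 4 (1.33), HGS2 TP2 treated replicate 1 (1.14) or 3 (1.34), and 60577 TP2 control replicate 2 (1.02), treated replicate 3 (1.25) or treated replicate 4 (1.34). With the replicate block, 673 genes in place of 1112 were called at TP2, and Spp1 (5.15, adjusted p = 0.0454) and Fn1 (1.502, adjusted p = 0.0483) among them. Of the others, the TP1 differences of Postn (-2.54, SE 0.89, edgeR adjusted p = 0.118) and Thbs2 (-2.77, SE 0.91, edgeR adjusted p = 0.0986) and the TP2 difference of Thbs4 (3.08, SE 1.05, edgeR adjusted p = 0.0597) were not called. Thbs2, too, was higher in every HGS2 TP1 control (510 to 1770 CPM) than in every HGS2 TP2 control (99.0 to 459 CPM). Thbs4 was called without the 3 pancreas-rich HGS2 tumors (4.37, adjusted p = 0.00479) without HGS2 TP2 control replicate 2 alone (4.34, adjusted p = 0.0139) or without HGS2 TP2 treated replicate 3 (3.57, adjusted p = 0.0426). The TP2 difference of Thbs1 (1.68, SE 0.58, edgeR adjusted p = 0.0625) was called without 60577 TP2 treated replicate 1 (1.85, adjusted p = 0.0422). At TP1, Thbs2 was called without HGS2 TP1 control replicate 2 (-3.14, adjusted p = 0.0479) or treated replicate 2 (-3.87, adjusted p = 0.0247), Spp1 without HGS2 TP1 treated replicate 2 (-5.09, adjusted p = 0.0455) and Tnc without the pancreas-rich tumors (-2.25, adjusted p = 0.0472).

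Untreated HGS2 tumors held more of most of these RNAs than untreated 60577 tumors. Over the 7 HGS2 and 6 60577 controls, 5 of the 8 genes were called higher in HGS2 and 0 lower, where 22.0% of all genes were called (13.2% higher and 8.81% lower). Postn had the largest difference of the 8: it was at 136 to 2158 CPM (median 622) in HGS2 controls and at 13.3 to 60.9 CPM (median 29.0) in 60577 controls, a log2 fold change of 5.03 (SE 0.51, edgeR adjusted p = 1.70e-08). Thbs2 was at 99.0 to 1770.4 CPM (median 459) against 19.5 to 64.2 CPM (median 54.9), a log2 fold change of 3.57 (SE 0.49, edgeR adjusted p = 1.44e-06). Neither gene overlapped between the models. Tnc was at 204 to 7336 CPM (median 1471) against 95.4 to 260.3 CPM (median 209), a log2 fold change of 3.46 (SE 0.48, edgeR adjusted p = 1.82e-06), with 1 HGS2 control, the pancreas-rich TP1 replicate 3, inside the 60577 range. Cthrc1 was at 30.9 to 115 CPM (median 96.8) against 10.9 to 19.5 CPM (median 12.8), a log2 fold change of 2.51 (SE 0.25, edgeR adjusted p = 9.09e-09). Thbs1 differed less, at 339 to 742 CPM against 156 to 292 CPM (1.14, SE 0.31, edgeR adjusted p = 0.00335), and its change was 0.99 without HGS2 TP1 control replicate 2. The calls of Postn, Thbs2, Tnc and Cthrc1 were kept under every setting tried. Fn1 (0.28, SE 0.23, edgeR adjusted p = 0.311), Spp1 (0.55, SE 0.67, edgeR adjusted p = 0.517) and Thbs4 (0.35, SE 0.54, edgeR adjusted p = 0.614) did not pass the test. Fibroblast markers moved with this difference: 7 of 9 were called higher in HGS2 controls, and their sum was 27500.0 to 134700.0 CPM against 5766 to 10020.0 CPM in 60577. Macrophage markers did as well, with 8 of 9 called higher, and 4 of 5 epithelial genes were called lower. The fibroblast list also summed to 14730 to 32220 CPM in the cultured HGS2 line and to 1038 to 2195 CPM in the 60577 line. Of its 8 genes tested in the lines, 5 were called higher in HGS2 and 1 lower. This list therefore does not mark fibroblasts apart from HGS2 tumor cells. Epithelial genes were lower in the HGS2 line too, with 5 of 5 tested called lower. The part of fibroblasts, macrophages and tumor cells in the result was not tested.

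In culture, 5 of the 8 genes were called higher in HGS2 than in 60577 cells, each call being lost without 1 of the libraries. Of the 7 genes tested, 5 were called higher in the HGS2 line (Spp1, Tnc, Postn, Thbs1 and Thbs2) and 0 lower, where 15.7% of all genes were called (7.43% higher and 8.27% lower). Tnc was at 2987 and 864 CPM in HGS2 cells and at 39.6 and 10.1 CPM in 60577 cells (log2 fold change 6.28, SE 1.06, edgeR adjusted p = 0.0213). Thbs1 was at 2666 and 324 CPM against 80.8 and 69.3 CPM (4.32, SE 1.05, edgeR adjusted p = 0.0492), and Spp1 at 77.3 and 41.4 CPM against 20.4 and 18.2 CPM (1.62, SE 0.33, edgeR adjusted p = 0.0318). Postn was at 43.3 and 6.72 CPM against 0.658 and 0.0674 CPM (6.15, SE 1.37, edgeR adjusted p = 0.0401), and Thbs2 at 22.3 and 2.35 CPM against 0.192 and 0.180 CPM (6.03, SE 1.29, edgeR adjusted p = 0.0370). HGS2 replicate 1 was above replicate 2 for all of these. Fn1, at 17335 and 5737 CPM against 3393 and 2733 CPM, was higher in both HGS2 replicates without being called (1.91, SE 0.60, edgeR adjusted p = 0.0868). Each of the 5 calls was lost when 1 of the 4 libraries was left out: Spp1 without 60577 replicate 1 (1.71, adjusted p = 0.140) or 2 (1.54, adjusted p = 0.198), Tnc without 60577 replicate 2 (5.60, adjusted p = 0.0935) or HGS2 replicate 1 (5.12, adjusted p = 0.101), Postn without 60577 replicate 1 (8.46, adjusted p = 0.0907) or 2 (5.24, adjusted p = 0.181) or HGS2 replicate 1 (4.25, adjusted p = 0.0590), Thbs1 without 60577 replicate 1 (4.43, adjusted p = 0.224) or 2 (4.21, adjusted p = 0.280) and Thbs2 without 60577 replicate 1 (6.07, adjusted p = 0.174) or 2 (5.98, adjusted p = 0.213). Without HGS2 replicate 2, Fn1 was called (2.55, adjusted p = 0.00170). The direction held for all 5 throughout. Cthrc1 was low in both lines, at 2.49 and 2.51 CPM in HGS2 and 1.87 and 0.562 CPM in 60577 (1.05, SE 0.64, edgeR adjusted p = 0.297). Thbs4 was not tested: it had 1 and 0 counts in the HGS2 replicates and 6 and 9 in the 60577 replicates, and a count of 0 allows up to 0.0809 CPM there, counting error only.

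**Figure D3:**
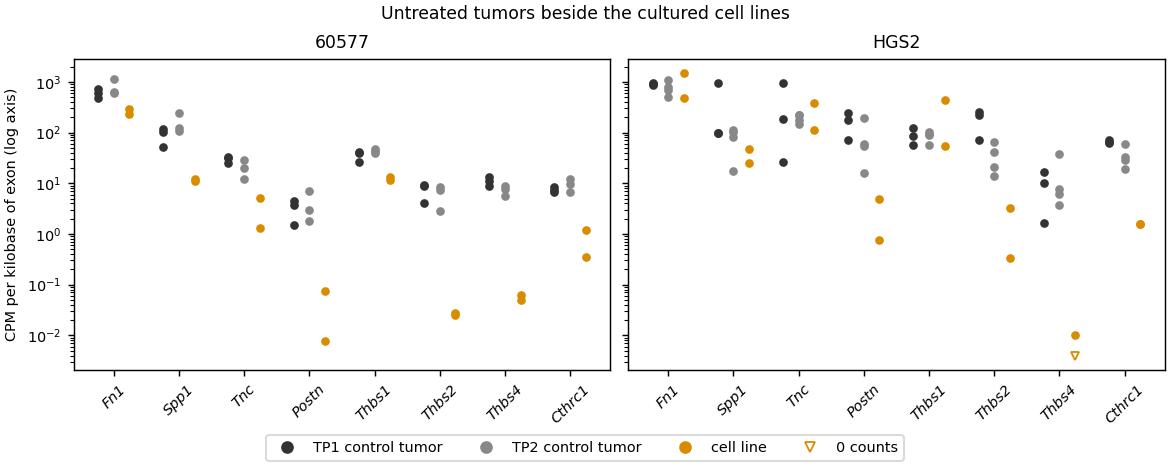
Level of each gene (CPM per kilobase of exon, log axis) in the control tumors and in the cultured line of 60577 (left) and HGS2 (right). In 60577 all 8 genes are lower in the line than in every control tumor, and in HGS2 Fn1, Spp1, Tnc and Thbs1 of the line overlap the tumors whereas Postn, Thbs2, Thbs4 and Cthrc1 lie below them.

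The tumors are in a separate table and so were not tested against the lines. Set beside them, some of the 8 genes overlapped the tumors in the HGS2 line, and none did in the 60577 line. In HGS2, the line overlapped the 7 control tumors for Fn1 (5737 and 17335 CPM against 5968 to 12464 CPM), Tnc (864 and 2987 CPM against 204 to 7336 CPM), Thbs1 (324 and 2666 CPM against 339 to 742 CPM) and Spp1 (41.4 and 77.3 CPM against 28.4 to 1568 CPM). Postn, Thbs2, Cthrc1 and Thbs4 were below every HGS2 control tumor, with mean control levels 40.9, 55.7 and 31.2 times the line's mean for the first 3. In 60577, every gene was lower in the line than in every control tumor. The control mean was 2.64 times the line's mean for Fn1, 3.20 times for Thbs1, 7.88 times for Tnc, 10.6 times for Spp1 and 11.3 times for Cthrc1. It was 85.5 times for Postn, 165 times for Thbs4 and 256 times for Thbs2. In the 60577 tumors at TP3, Spp1 (6.44 to 9.51 CPM) was below the cultured line (18.2 and 20.4 CPM), and the other 7 genes were above it in every TP3 tumor. Kind of sample and table cannot be told apart in these values. The share of all genes that separate line and tumors in this way was not counted.

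The receptors of these proteins were followed as a list of 14 genes, of which 13 were tested in tumors. In 60577 at TP1, 3 were called higher and 0 lower: Cd36, a scavenger receptor for thrombospondins (log2 fold change 4.86, SE 0.77, edgeR adjusted p = 0.000303), and the integrin subunits Itga4 (1.45, SE 0.37, edgeR adjusted p = 0.00824) and Itga9 (1.03, SE 0.27, edgeR adjusted p = 0.00829). At TP2, 4 were higher and 4 lower. The 4 with the smallest adjusted p were the syndecan Sdc4 (-1.60, SE 0.21, edgeR adjusted p = 2.69e-05), Itga4 (2.76, SE 0.38, edgeR adjusted p = 4.00e-05), Itga9 (1.49, SE 0.26, edgeR adjusted p = 0.000242) and Itgb1 (-1.06, SE 0.21, edgeR adjusted p = 0.000752), the beta subunit of the main fibronectin receptor. At TP3 against TP2 controls, 4 were higher and 3 lower, led by Itga4 (2.78), Sdc4 (-1.51), Cd36 (5.12) and Sdc1 (-1.53). In HGS2, none was called for treatment. The TP2 difference between the models was called for Sdc4 (1.52, SE 0.30, edgeR adjusted p = 0.00601), Itga4 (-2.42), Itga8 (-2.26) and Sdc1 (1.34). HGS2 controls had more Itgb3 (2.07, SE 0.29, edgeR adjusted p = 1.89e-06), Itga4 (2.32) and Itga5 (1.34) and less Sdc4 (-1.57, SE 0.16, edgeR adjusted p = 1.66e-08) than 60577 controls. Itgb3 and Itga4 were also higher in the HGS2 line (2.68 and 4.64) and Cd36 lower (-4.48). Of all genes, 9.62% were called higher and 5.96% lower at TP1 in 60577, and 14.8% and 9.61% at TP2. The shares were 14.2% and 10.2% at TP3 against TP2 controls, and 13.2% and 8.81% for HGS2 against 60577 controls.

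Of 17 other matricellular genes, 14 were tested in tumors. In 60577 at TP1, 5 were called higher and 0 lower, led by Smoc2 (3.29, SE 0.59, edgeR adjusted p = 0.000736), Ccn3 (1.98), the periostin relative Tgfbi (1.18) and the tenascin Tnxb (1.79). At TP2, 5 were higher and 0 lower, led by Tnxb (2.40, SE 0.49, edgeR adjusted p = 0.000894), Thbs3 (1.15), Ccn3 (1.49) and Smoc2 (1.82). At TP3 against TP2 controls, 6 were higher, led by Tnxb (3.04), Smoc2 (3.00), Thbs3 (1.58) and Smoc1 (5.42), and 1 was lower. Thbs3, of the same pentameric group as Thbs4, was therefore called higher at TP2 and at TP3 against TP2 controls, where Thbs4 was called lower. Of the treated groups, TP2 against TP1 brought calls for Sparc (edgeR adjusted p = 0.0107) and Ccn1 (-1.34, edgeR adjusted p = 0.0285), both lower, beside Fn1, Spp1 and Cthrc1. In HGS2 controls against 60577 controls, 11 of the 14 were higher and 0 lower, led by the tenascin Tnn (6.59, SE 0.64, edgeR adjusted p = 7.04e-09), Thbs3 (2.35), Sparc (2.06) and Ccn3 (5.04). In the lines, 3 of 12 tested were higher in HGS2 (Smoc1 by 5.01, Tgfbi by 3.32 and Sparc by 1.52). The shares of all genes called in the tumors are those given with the receptors, and in the lines 7.43% were called higher.

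**Figure D4:**
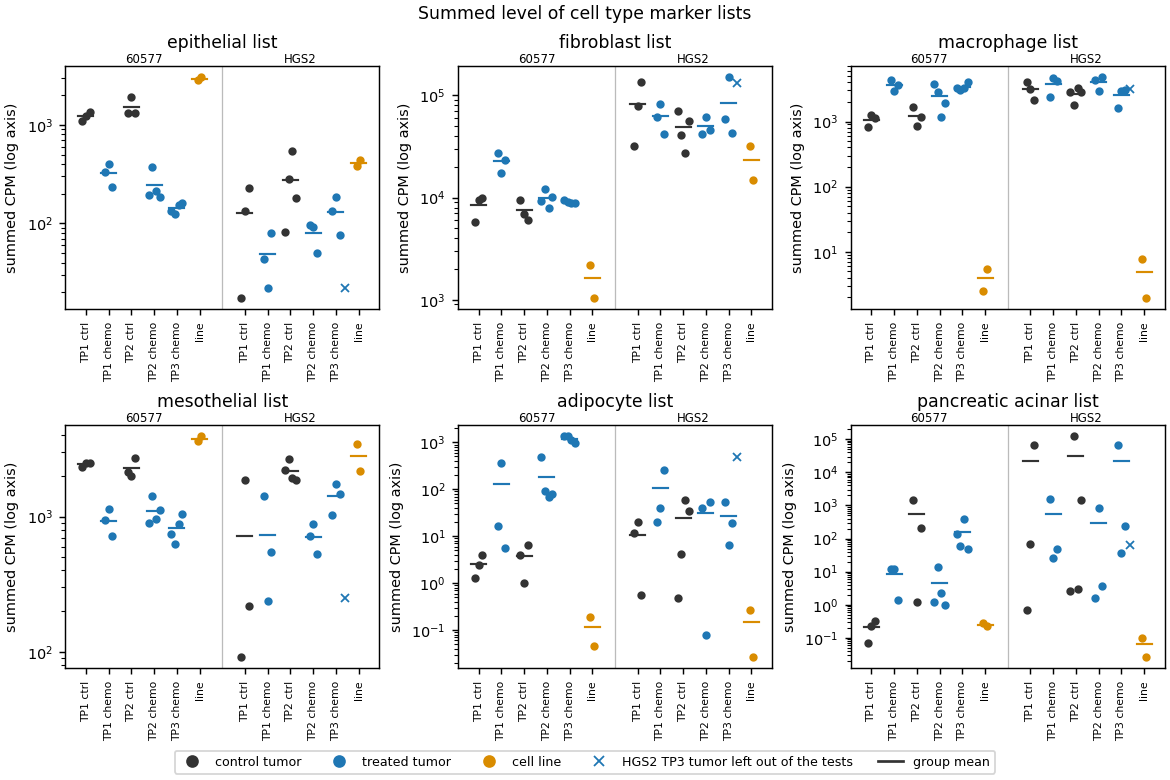
Summed level (CPM, log axis) of 6 cell type marker lists in every library, by model, time point and treatment, with lines at the means of the libraries tested and a cross for the HGS2 TP3 tumor left out of the tests. In 60577, epithelial genes fall from 1090.0 to 1911 CPM in controls to 123.8 to 405 CPM in treated tumors and adipocyte genes reach 966 to 1370.0 CPM at TP3, and in HGS2 pancreatic genes reach 65250 CPM or more in 3 tumors.

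Other cell type lists also held called genes in 60577. Of all genes, 9.62% were called higher and 5.96% lower at TP1. At TP2 these shares were 14.8% and 9.61%, and at TP3 against TP2 controls 14.2% and 10.2%. Mesothelial genes summed to 2000.0 to 2708 CPM in controls and 625 to 1427 CPM in treated tumors, with 5, 1 and 5 of 6 called lower at TP1, TP2 and TP3. The same genes summed to 3599 to 3949 CPM in the cultured 60577 line, so this list does not mark mesothelial cells apart from tumor cells. Neutrophil genes, of which 3 were tested, summed to 29.0 to 119.4 CPM in TP1 treated tumors and to at most 38.2 CPM in every other 60577 tumor, with 3 of 3 called higher at TP1 and 2 of 3 lower at TP2. Fibroblast genes were called higher in 6 of 9 at TP1 and 3 of 9 at TP2. Platelet genes summed to 11.5 to 37.6 CPM in all 60577 tumors, and 1 of the 2 tested was called higher at TP1. Endothelial genes gave 0 calls at TP1 and TP2 and 1 of 5 at TP3, which is near the share of all genes. In HGS2, 0 genes of any list were called for treatment. How far any of these cells set the level of the 8 genes was not tested.

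Across tumors, the 8 genes did not vary as a single block. Over the 17 tumors of 60577, Pearson r of log2 CPM was 0.878 between Fn1 and Spp1, 0.786 between Fn1 and Cthrc1 and 0.843 between Spp1 and Cthrc1. Over the 16 HGS2 tumors the same pairs had r of -0.109, 0.327 and 0.0396. Postn and Thbs2 were alike in both models (r of 0.840 in 60577 and 0.783 in HGS2), and Thbs2 and Thbs4 ran opposite in both (-0.668 and -0.601). These values include the differences between groups and are descriptions without a test, since tumors of a group share treatment and time. Of all other genes, the fibulin gene Fbln2 was most like Fn1 (r of 0.986 in 60577 and 0.847 in HGS2), followed by Abhd2 (0.877 and 0.825) and Basp1 (0.828 and 0.810). Most like Spp1 were its overlapping model Gm42793 (0.916 and 0.879), the platelet-derived growth factor gene Pdgfa (0.819 and 0.848) and Myo10 (0.832 and 0.762). Postn was most like Lrrc17 (0.797 and 0.850), Gjc1 (0.882 and 0.759) and B3galnt1 (0.861 and 0.734), and Thbs2 most like Castor2 (0.824 and 0.837), the laminin gene Lama4 (0.913 and 0.815) and Bhlhe22 (0.845 and 0.815). For the other genes the lower of the pair of r values was at most 0.807 (Tnc with Gm43737), and it was at most 0.707 for Thbs1 (with Prkx), 0.703 for Thbs4 (with Cnep1r1) and 0.668 for Cthrc1 (with Fam114a1).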

How the data were processed

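RNA was measured in 34 omental tumors and 4 cell line libraries. After ribosomal RNA depletion and strand-specific paired sequencing, the authors trimmed reads (Trim Galore 0.6.5), mapped them (STAR 2.7.0f) and deposited RSEM expected counts per gene (GRCm38), in a table for the tumors of both models and a table for the lines. The expected counts, of 55487 gene ids of which 55227 matched the annotation, were rounded here, and genes with at least 1 CPM in 25% of the libraries were tested (16241 in tumors, 13742 in lines).

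The edgeR quasi-likelihood test (edgeR 4.0.16, R 4.3.3, two-sided, TMM, robust) was fitted to the 5 groups of each model, to both models jointly and to the lines. Alternatives used limma 3.58.1, DESeq2 1.42.0, other scaling or filters, length and GC offsets, covariates for 7SL RNA and pancreatic genes, a replicate block, and leaving out libraries. The scripts were tested on simulated data for 60577 at TP1, HGS2 at TP1 and the lines. Tables used pandas 2.3.3 under Python 3.11.15, and plots matplotlib 3.10.9.

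Levels per kilobase used the union of exons. The 8 genes are named in every comparison, from the receptor and matricellular lists at most 4 called genes by smallest adjusted p, from cell type lists at most 3, and per member the 3 genes with the highest lower value of the Pearson r of the 2 models. The members and lists were chosen with earlier results of these data known. At TP2, the deviations of same-numbered tumors correlated at 0.114 to 0.144 in 60577 and at 0.138 to 0.296 in HGS2. The labels do not say that equal numbers pair tumors, and tumors with unlike numbers were not correlated. The main fits hold no replicate block, which was tried as an alternative only. The 44 replicate pairs differed by more than sampling noise (chi-square per degree of freedom of 9.38 or more). For the cell lines, p-values measure the spread between these libraries, which may be technical. Counting intervals cover counting error only.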

Additional observations from a re-analysis of the deposited data

Results flagged for a closer look

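The 8 genes in the 4 groups of 4 tumors gave 32 sets of values, which share their tumors. Of these sets, tested by the gap of an extreme value relative to the range of the set, 4 passed the 95% critical value of Dixon's test and so held a tumor that stood apart, where chance gives about 5%. Spp1 was low in 60577 TP3 treated replicate 4 (ratio 0.837), at 6.44 CPM against 9.01 to 9.51 CPM in the others. Cthrc1 was high in 60577 TP3 treated replicate 3 (ratio 0.883), at 10.8 CPM against 6.16 to 6.70 CPM. Thbs1 was high in HGS2 TP3 treated replicate 4 (ratio 0.845), at 722 CPM against 182 to 266 CPM, in a group that here includes the tumor left out of the tests. Thbs4 was high in HGS2 TP2 control replicate 2 (ratio 0.883), at 124 CPM against 12.1 to 25.1 CPM, and this tumor also held 125400 CPM of pancreatic acinar genes.

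The response to treatment differed between HGS2 and 60577 (HGS2 minus 60577, log2) by -2.29 for Cthrc1 at TP1, by 1.39 for Fn1 at TP2 and by 5.48 for Spp1 at TP2, each by the edgeR test of the difference itself. For Cthrc1, the HGS2 response is measured against TP1 controls that all lay above the HGS2 TP2 controls.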

How the results depend on the processing

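Of the 32 calls of the 8 genes, 12 were kept under every setting tried and 20 were lost under at least 1, and of 95 results without a call 16 were called under at least 1. No call changed direction, but 34 of the 95 results without a call changed sign under at least 1 setting. Leaving out 3 pancreas-rich HGS2 tumors, leaving out 2 7SL-rich 60577 tumors and the crossed block were chosen after seeing the data. The causes of the changes below were not tested. In 60577, neither covariate overlapped between TP1 control and TP1 treated tumors or between TP2 and TP3 treated tumors. The pancreas covariate did not overlap between TP1 and TP2 controls either. For these comparisons the fit cannot tell the covariate apart from the contrast.

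Of the 8 genes, 5 were called in 60577 at TP1 and 3 at TP2. At TP1 it was 3 without a filter on low counts and 3 with pancreas genes as a covariate, and at TP2 it was 5 with that covariate. For TP2 against TP1 treated tumors, 972 genes were called, and 571 with the replicate block, 613 with offset and block, 558 with the 7SL covariate and 123 without the 7SL-rich tumors, with 1 of the 8. For TP3 against TP2 treated tumors, 1277 genes were called, and 15 with the 7SL covariate, 785 with the pancreas covariate and 204 without the 7SL-rich tumors. Of the 8 genes, 2 became 1 without a filter, 0 with 7SL, 1 with pancreas and 0 without the 7SL-rich tumors. Between 60577 controls, 0 became 70 with DESeq2 and 97 with the pancreas covariate. In HGS2, DESeq2 called 1 gene at TP1, 8 at TP2, 1 for TP2 against TP1 treated, 105 for TP3 against TP2 treated, 5 for TP3 against TP2 controls and 7 between controls.

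The TP1 difference between models (231 genes, 1 of the 8) gave 104 genes without a filter, 721 with DESeq2, 537 with the offset, 407 with offset and block and 514 with the pancreas covariate, and 3 of the 8 with DESeq2, 2 with 7SL and 2 without the pancreas-rich tumors. The TP2 difference (1112 genes, 2 of the 8) gave 733 genes without a filter, 673 with the block, 542 with offset and block, 274 with 7SL and 206 without the 7SL-rich tumors. Of the 8 it gave 1 without a filter, 1 with limma-voom, 4 with DESeq2, 0 with offset and block, 0 with 7SL, 4 with the pancreas covariate, 1 with all 17 HGS2 tumors and 0 without the 7SL-rich tumors. In the lines (2158 genes, 5 of the 8), 3849 genes were called without a filter, and 3 of the 8 with limma-voom.

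Leaving out 1 tumor at a time, the called genes ranged in 60577 from 1987 to 2379 at TP1 (3 to 5 of the 8), 3432 to 4338 at TP2 (2 to 4), 252 to 1363 for TP2 against TP1 treated (3 to 5), 729 to 2124 for TP3 against TP2 treated (1 to 3), 3608 to 4210 for TP3 against TP2 controls (3 to 6) and 0 to 36 between controls. In HGS2 they ranged from 0 to 47 between controls and were 0 otherwise. For the differences between models they ranged from 57 to 639 at TP1 (0 to 3), 364 to 1461 at TP2 (1 to 3) and 3380 to 3719 in controls (4 to 5), and in the lines from 463 to 3449 (0 to 6).

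With the replicate block, Tnc was called in 60577 at TP2 (1.02) and Cthrc1 was not at TP3 against TP2 controls (-0.89), and it changed no other call of the 8 at TP2 or TP3. At TP1, same-numbered tumors did not all deviate together (-0.0517 to 0.131 in 60577, -0.279 to 0.0869 in HGS2). In the lines their deviations correlated at -0.153, with 2307 genes and 4 of the 8 called with the block and 2160 genes and 3 of the 8 with crossed numbers.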
